A study of Mus musculus with 200 samples.

Results

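The 10 genes described here encode calcium/calmodulin-dependent protein kinases (CaM kinases) and were taken by name from the deposited counts table, which lists 56941 genes. They are the CaM kinase kinases Camkk1 and Camkk2, the CaM kinase I genes Camk1, Camk1d and Camk1g, the CaM kinase II genes Camk2a, Camk2b, Camk2d and Camk2g, and the CaM kinase IV gene Camk4. Each was compared between closed-head injury (CHI), an impact on the intact skull, and sham surgery, which was anaesthesia and a scalp incision without impact, in 4 mouse strains at 9, 24 and 72 h after surgery. RNA came from 1 hemisphere per mouse, taken after perfusion and snap-frozen. The strains were C57BL/6J and 3 others, which carry the labels IL-1R1 nRestore, IL-1R1 gKO and IL-1R1 eRestore and are called nRestore, gKO and eRestore here. Their alleles, and the cells that each allele acts in, are not given in the sources used here. The CHI and sham groups held 15 and 6 C57BL/6J mice at 9 h and 14 and 6 at both 24 and 72 h. In gKO they held 13 and 6 mice at 9 h and 12 and 6 at both later times. In eRestore they held 12 and 6 at 9 h, 9 and 5 at 24 h, and 12 and 6 at 72 h. In nRestore they held 6 and 4 at 9 h, 8 and 5 at 24 h, and 6 and 5 at 72 h. Ages ran from 3.3 to 7.67 months, and both sexes were present in each group except nRestore at 72 h, where all mice were male.

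CaM kinases are switched on when calcium enters a cell and binds calmodulin. CaM kinase kinases sit at the top of a cascade: they phosphorylate CaM kinase I and CaM kinase IV and so raise their activity, and CaM kinase kinase 2 also phosphorylates the AMP-activated kinase, a sensor of cell energy. CaM kinase I acts in axon and dendrite growth, CaM kinase IV acts in the nucleus on CREB-dependent transcription, and CaM kinase II, a large holoenzyme that is abundant at excitatory synapses, is known for its part in long-term potentiation.

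Total estimated counts ran from 14857985 to 57355676 per mouse over the 200 mice, and every sham mouse had at least 212 reads of each of the 10 genes. Levels are given as TMM-normalised CPM, the count of a gene scaled to the size of its library. The mice came from 8 experiments. All mice of the 9 h groups were from other experiments than those of the later groups, and a contrast of times therefore cannot be told apart from a contrast of experiments, ages or times of day. Markers of brain regions differed between these times as well, in sham mice too (values beside the comparison of times). At 24 h, 4 eRestore, 5 gKO and 4 nRestore CHI mice came from an experiment with no sham mouse of their strain. These mice were all female and older than every sham mouse of their strain at 24 h. The oldest were 7.4, 7.4 and 7.2 months in that order, against 5.3 months for the oldest sham mouse in each strain. The age term of these fits thus had no sham mice at such ages. Il1r1, the gene named in 3 of the strain labels, was not lower in those mice at 9 h: it lay between 2.92 and 5.13 CPM in C57BL/6J sham mice, between 6.09 and 13.9 CPM in gKO, between 5.35 and 16.6 CPM in eRestore and between 8.08 and 9.59 CPM in nRestore sham mice. The counts therefore did not check these labels, and which part of the gene is altered is not given in the sources used here. In bulk RNA, fewer cells of a type and less RNA per cell cannot be told apart.

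Camkk1, Camk1d and Camk1 are the genes that the 9 h comparison turns on, so their promoter windows are shown. Windows of 300 bases around a RefSeq transcript start (250 bases before it and 50 after, from the RefSeq table on GRCm38.p6) were found for 7 of the 10 genes, and each window shown was located in GRCm39 by its single exact match. The letters below run 5′ to 3′ on the strand of the gene, and the capitals mark the letters TGACG, a shortened form of the cAMP response element, the site bound by CREB.

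Camkk1 (chr11:72909564-72909863, GRCm39, + strand): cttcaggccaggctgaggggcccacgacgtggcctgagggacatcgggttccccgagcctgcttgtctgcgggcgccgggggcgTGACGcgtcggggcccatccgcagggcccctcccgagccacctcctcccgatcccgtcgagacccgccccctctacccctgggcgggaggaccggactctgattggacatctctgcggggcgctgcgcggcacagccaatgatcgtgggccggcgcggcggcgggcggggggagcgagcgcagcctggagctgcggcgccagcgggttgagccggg

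Camk1d (chr2:5719524-5719823, GRCm39, - strand): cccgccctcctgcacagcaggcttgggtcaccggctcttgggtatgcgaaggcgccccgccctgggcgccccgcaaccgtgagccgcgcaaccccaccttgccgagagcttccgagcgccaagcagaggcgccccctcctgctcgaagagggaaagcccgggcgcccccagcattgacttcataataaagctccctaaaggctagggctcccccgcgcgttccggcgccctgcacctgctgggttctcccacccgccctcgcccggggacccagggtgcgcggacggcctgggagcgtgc

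Camk1 (chr6:113320834-113321133, GRCm39, - strand): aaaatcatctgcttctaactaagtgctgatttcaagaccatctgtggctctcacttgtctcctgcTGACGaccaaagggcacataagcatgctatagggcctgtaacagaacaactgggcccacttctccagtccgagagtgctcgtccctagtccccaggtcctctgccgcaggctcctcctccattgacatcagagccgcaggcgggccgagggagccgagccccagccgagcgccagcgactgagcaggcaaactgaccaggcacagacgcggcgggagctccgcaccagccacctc

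The 3 windows were searched on both strands for the full palindrome of the glucocorticoid response element, for the full cAMP response element (TGACGTCA), for its shortened form, which the full element contains, and for CACGTG, the E-box bound by clock factors. TGACG was found at position -166 from the start in Camkk1 and at -185 in Camk1, and none of the other motifs was found in the windows of Camkk1, Camk1 or Camk1d. For Camk1d a second RefSeq window (chr2:5680808-5681107), with its start 38518 bases from the annotated gene start, is not shown and held none of the motifs. Over 32851 RefSeq windows of the same length, TGACG was present in 20.8%, the E-box in 7.15%, the full cAMP response element in 1.79% and the glucocorticoid response element in 0.475%. In the GENCODE annotation of GRCm39, Camkk1 spans chr11:72909421-72933202, Camk1 spans chr6:113311071-113321106 and Camk1d spans chr2:5298268-5719375. The RefSeq start of the window shown thus lies inside the annotated gene for Camkk1 and Camk1 and just upstream of it for Camk1d.

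Camkk1 was higher after CHI at 9 h in all 4 strains, by 1.60-fold to 1.97-fold, and did not pass the test in any strain at 24 or 72 h. Camk1d was higher at 9 h in C57BL/6J and eRestore mice, Camk1 was lower at 9 h in C57BL/6J mice, and Camkk2 was lower at 24 h in C57BL/6J mice. A gene was called when its Benjamini–Hochberg adjusted p in edgeR's quasi-likelihood test, over all genes tested, was under 0.05. At 9 h, 3 of the 10 kinase genes were called in C57BL/6J mice, against 14.1% of all genes tested, and the median log2 fold change was 0.10 over the 10 genes and -0.01 over all genes. In eRestore mice 2 were called (7.34% of all genes), in gKO mice 1 (0.199%) and in nRestore mice 1 (0.608%). With the mice of all 4 strains in 1 fit, 6 of the 10 were called at 9 h, 4 higher and 2 lower, against 23.9% of all genes; that fit shares its mice with the fits of single strains.

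**Figure D1:**
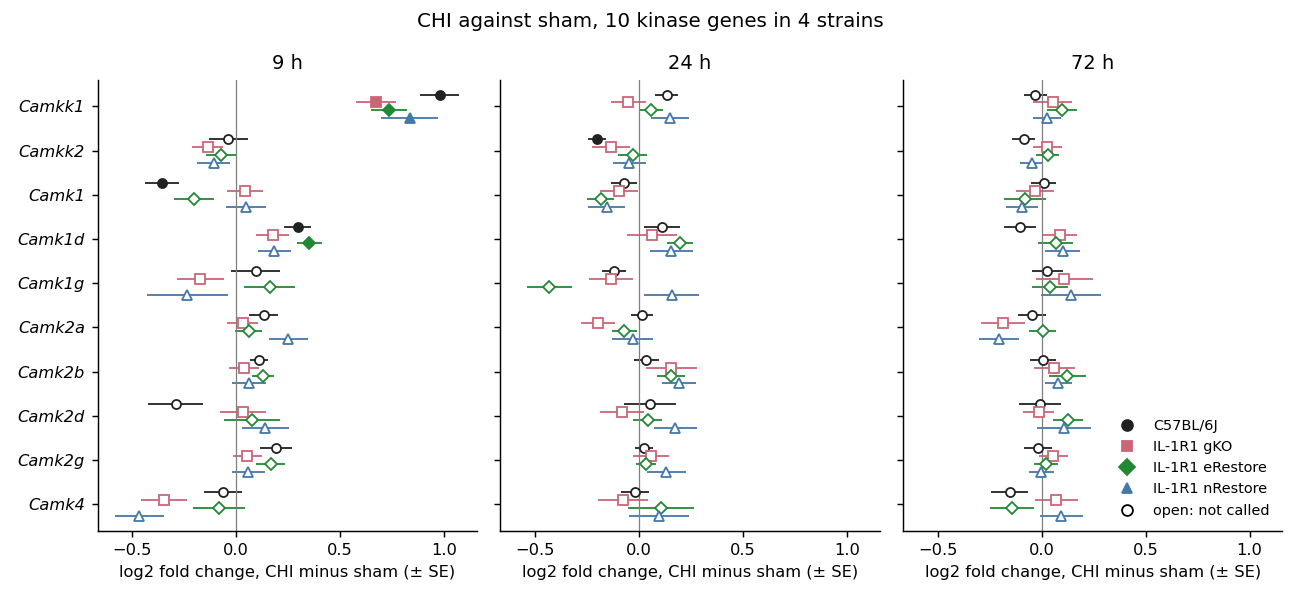
Log2 fold change, CHI minus sham, of the 10 kinase genes (rows) at 9, 24 and 72 h (panels) in 4 strains (symbols), with the standard error as bars and filled symbols for called genes. Camkk1 at 9 h lies between 0.67 and 0.98 in the 4 strains. The values of all 10 genes lie between -0.47 and 0.98 at 9 h and between -0.43 and 0.20 at 24 and 72 h.

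Camkk1, the CaM kinase kinase alpha gene, lay between 91.2 and 140.9 CPM in the 6 C57BL/6J sham mice at 9 h (median 107.6) and between 167.6 and 303.9 CPM in the 15 CHI mice (median 225.2). This was a log2 fold change of 0.98 (SE 0.09, adjusted p = 2.54e-07), which ranked 13 by p among 16967 genes. In gKO mice the sham values ran from 94.6 to 118.9 CPM (median 114.0) and the CHI values from 146.5 to 268.3 CPM (median 164.7). Every CHI mouse of these 2 strains was above every sham mouse of its strain. In gKO mice the log2 fold change was 0.67 (SE 0.10, adjusted p = 0.00187).

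In eRestore mice, Camkk1 ran from 91.7 to 128.7 CPM in sham (median 110.6) and from 162.2 to 234.2 CPM in CHI (median 174.1), with a log2 fold change of 0.74 (SE 0.09, adjusted p = 5.50e-05). The 4 nRestore sham mice had 99.6, 100.7, 116.2 and 116.9 CPM, and the 6 CHI mice had 167.5 to 248.5 CPM (median 179.1). The groups did not overlap in these strains either, and the share of all genes without overlap was not counted in any strain. In nRestore mice the log2 fold change was 0.83 (SE 0.14, adjusted p = 0.0250; 1.08e-17 to 0.247 over 12 alternatives), and the call was lost without sham replicate 1 (0.89, adjusted p = 0.0552) or sham replicate 3 (0.77, adjusted p = 0.247).

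Over the 4 strains together the log2 fold change of Camkk1 at 9 h was 0.81 (SE 0.06, adjusted p = 4.89e-18), the smallest p of 18741 genes. Within experiments, the CHI mean was above the sham mean in 8 of 8 sets of 1 strain and 1 experiment, by 0.55 to 1.21 on the log2 scale. In C57BL/6J mice the 2 experiments gave 0.89 (10 CHI, 4 sham) and 1.21 (5 CHI, 2 sham), and in nRestore mice all were of 1 experiment. In gKO mice the 3 experiments gave 0.73, 0.55 and 0.72, and the call was lost when only the largest of them was tested (0.63, adjusted p = 0.295; 4.65e-08 to 0.295 over 15 alternatives). The noncoding gene 4732414G09Rik overlaps Camkk1 on the opposite strand, and its group means at 9 h were 0.0641 to 0.188 CPM.

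**Figure D2:**
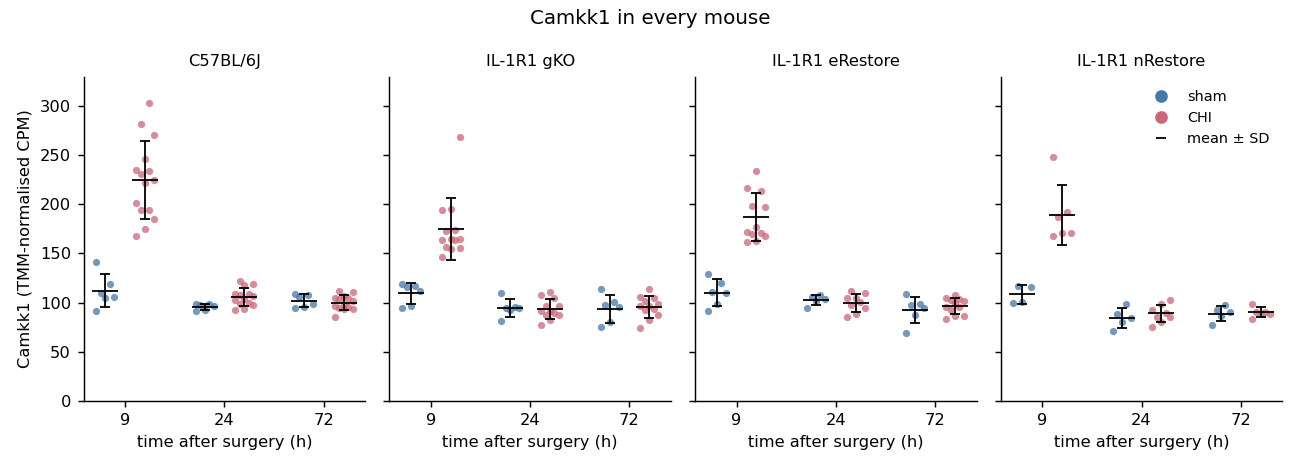
Camkk1 in every mouse (points, TMM-normalised CPM) by time after surgery and strain, sham beside CHI, with the mean and SD as bars. At 9 h the CHI mice lie between 146.5 and 303.9 CPM, above all sham mice, and at 24 and 72 h the groups overlap.

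At 24 h the Camkk1 medians in C57BL/6J mice were 96.8 CPM in sham (91.5 to 98.7) and 104.8 CPM in CHI (92.6 to 121.9), with 10 of 14 CHI mice above all sham mice. Their log2 fold change of 0.13 (SE 0.06, adjusted p = 0.437) did not pass the test. At 72 h the medians were 102.3 and 99.8 CPM, a log2 fold change of -0.03 (SE 0.06). In the other strains the log2 fold changes of Camkk1 at 24 and 72 h lay between -0.05 and 0.15, and CHI and sham mice overlapped.

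Camkk2, the CaM kinase kinase beta gene and the kinase of the AMP-activated kinase, differed by less than the spread between mice at 9 h, with log2 fold changes from -0.14 to -0.04 in the 4 strains and adjusted p of 0.519 or more. In C57BL/6J mice at 24 h it lay between 251.3 and 317.6 CPM in sham (median 276.3) and between 234.6 and 258.9 CPM in CHI (median 242.9). All 14 CHI mice were below the sham median and 8 were below every sham mouse. The log2 fold change was -0.20 (SE 0.04, adjusted p = 0.0313; 0.00205 to 0.744 over 15 alternatives), the only call among the 10 genes at 24 h in C57BL/6J mice, where 0.404% of all genes were called.

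The Camkk2 call at 24 h was lost without sham replicate 1 (adjusted p = 0.141), 3 (0.0994) or 4 (0.179), with the largest experiment alone (-0.25, adjusted p = 0.142) and in 1 fit of the strain over the 3 times (-0.18, adjusted p = 0.744). The CHI mean at 24 h was below the sham mean in 6 of 6 sets of 1 strain and 1 experiment, with differences from -0.24 to -0.00. In gKO, eRestore and nRestore mice the log2 fold changes at 24 h were -0.14, -0.03 and -0.05, with adjusted p of 0.721 to 0.960, and the 4 strains together gave -0.12 (SE 0.04, adjusted p = 0.0712; 0.0161 to 0.0712 over 3 alternatives).

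Among the CaM kinase I genes, Camk1d, which encodes the delta isoform, was higher after CHI at 9 h. It lay between 183.5 and 256.1 CPM in C57BL/6J sham mice (median 232.8) and between 222.2 and 306.3 CPM in CHI mice (median 279.4), and 13 of 15 CHI mice were above every sham mouse. This gave a log2 fold change of 0.30 (SE 0.06, adjusted p = 0.00279). In eRestore mice the sham values ran from 192.5 to 261.4 CPM (median 204.2) and the CHI values from 247.2 to 292.1 CPM (median 272.2). The CHI mice were all above the sham median and 8 of 12 were above every sham mouse. Here the log2 fold change was 0.35 (SE 0.06, adjusted p = 0.00180).

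The log2 fold change of Camk1d at 9 h was 0.17 (SE 0.08, adjusted p = 0.425) in gKO mice, where 3 of 13 CHI mice were above every sham mouse, and 0.18 (SE 0.08, adjusted p = 0.340) in nRestore mice, where 6 of 6 were. The share of all genes with such a separation in nRestore mice was not counted. Over the 4 strains it was 0.27 (SE 0.04, adjusted p = 7.53e-09), and the CHI mean was above the sham mean in 8 of 8 sets of 1 strain and 1 experiment (0.07 to 0.44). At 24 and 72 h its values in single strains lay between -0.11 and 0.20, and none was called. In eRestore mice at 24 h the CHI mice split, with 5 of 9 above every sham mouse and 4 below every sham mouse. Within the experiment that held both arms (5 CHI, 4 sham), all 5 were above every sham mouse (difference 0.16). The other 4 CHI mice had no eRestore sham mouse of their own experiment. Camk2g split in this group too, with 4 of 9 above and 4 below every sham mouse.

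Camk1, which encodes the alpha isoform, went the other way in C57BL/6J mice at 9 h. Sham mice had 38.4 to 55.4 CPM (median 42.1) and CHI mice 29.4 to 42.8 CPM (median 34.1). The ranges overlapped, with 12 of 15 CHI mice below every sham mouse. The log2 fold change was -0.36 (SE 0.08, adjusted p = 0.00425), and the 2 experiments gave -0.37 and -0.29. In eRestore mice the value was -0.20 (SE 0.10, adjusted p = 0.181), in gKO mice 0.04 (SE 0.09, adjusted p = 0.918) and in nRestore mice 0.05 (SE 0.10, adjusted p = 0.896), and the 4 strains together gave -0.14 (SE 0.05, adjusted p = 0.0328). Ogg1, a DNA repair gene, overlaps Camk1 on the other strand, and its group means at 9 h were 3.53 to 5.24 CPM. Its mean in C57BL/6J mice was 3.94 CPM in sham and 4.45 CPM in CHI.

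Camk1g, the gamma isoform and the lowest of the 10 genes, was called in no comparison of CHI with sham. In eRestore mice at 24 h its log2 fold change was -0.43 (SE 0.11, adjusted p = 0.318), with all 9 CHI mice below the sham median and 5 below every sham mouse. Within the experiment that held both arms (5 CHI, 4 sham) the difference was -0.38, and the other 4 CHI mice had no eRestore sham mouse of their own experiment. DESeq2 called it there (adjusted p = 0.0402), and over 14 alternatives the adjusted p ran from 0.00170 to 0.9999. At 9 h its values ran from -0.24 in nRestore to 0.16 in eRestore mice.

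**Figure D3:**
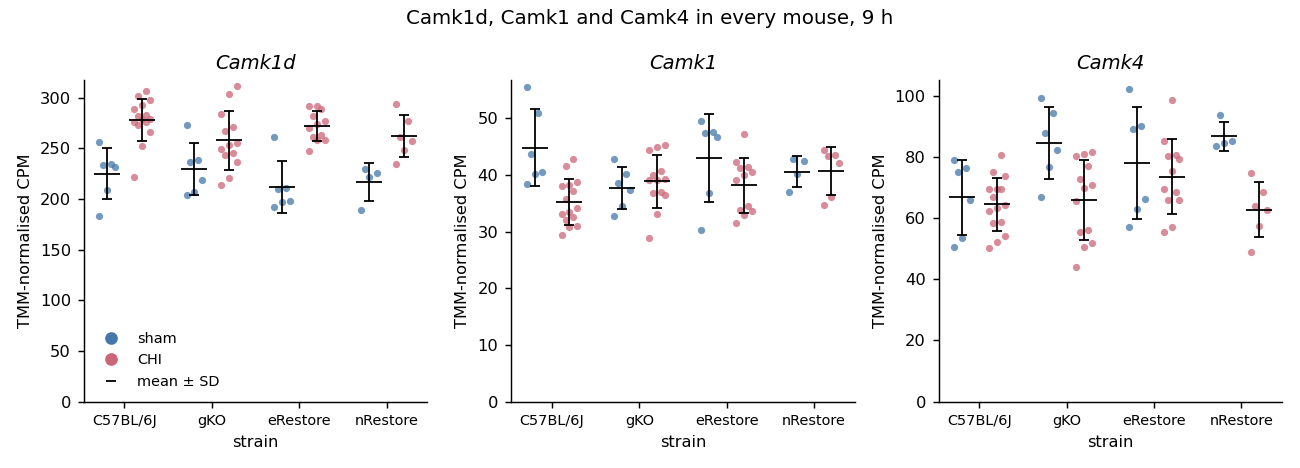
Camk1d, Camk1 and Camk4 at 9 h in every mouse (points, TMM-normalised CPM) by strain, sham beside CHI, with the mean and SD as bars. Camk1d in C57BL/6J mice has medians of 232.8 (sham) and 279.4 CPM (CHI), and Camk1 has 42.1 and 34.1 CPM. Camk4 in nRestore mice has no overlap between sham (83.7 to 93.8) and CHI (49.1 to 74.9) and was not called there.

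Camk4, the nuclear CaM kinase IV, was called in no single strain and was lower at 9 h over the 4 strains together (-0.22, SE 0.06, adjusted p = 0.00608). Its CHI mean at 9 h was below the sham mean in 7 of 8 sets of 1 strain and 1 experiment (-0.54 to 0.09). The 4 nRestore sham mice had 83.7, 84.5, 85.2 and 93.8 CPM, and the 6 CHI mice had 49.1 to 74.9 CPM (median 63.4), so that the groups did not overlap. How many of all genes separated likewise in these small groups was not counted. An unadjusted p under 0.05 was found in edgeR for 2207 of 16788 genes in nRestore mice at 9 h. The log2 fold change there was -0.47 (SE 0.12, adjusted p = 0.103), and 5 of 12 other settings called it, among them DESeq2 (adjusted p = 0.0134; range over the settings 6.16e-05 to 0.395). In gKO mice the sham values ran from 67.0 to 99.3 CPM (median 85.1) and the CHI values from 43.9 to 81.6 CPM (median 69.9). All 13 CHI mice were below the sham median and 6 were below every sham mouse, with a log2 fold change of -0.35 (SE 0.11, adjusted p = 0.207). In C57BL/6J and eRestore mice the values were -0.06 (SE 0.09) and -0.08 (SE 0.13).

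The 4 CaM kinase II genes were called in no single strain at any time. Camk2a, the alpha subunit of forebrain excitatory neurons, lay between 3210 and 4318 CPM in C57BL/6J sham mice at 9 h (median 3799) and between 3541 and 4808 CPM in CHI mice (median 4127), a log2 fold change of 0.13 (SE 0.07, adjusted p = 0.230). Over the 4 strains it was 0.10 (SE 0.04, adjusted p = 0.0428), and with RLE in place of TMM factors the adjusted p was 0.0517 (0.0408 to 0.0517 over 3 alternatives). The CHI mean of Camk2a was above the sham mean in 6 of 8 sets of 1 strain and 1 experiment and below it in 2 (-0.09 to 0.21). Camk2g, the gamma subunit, gave 0.19 (SE 0.08, adjusted p = 0.104) in C57BL/6J mice and 0.12 (SE 0.04, adjusted p = 0.0145) over the 4 strains, and the CHI mean was above the sham mean in 8 of 8 sets of 1 strain and 1 experiment (0.04 to 0.27).

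Camk2b, the beta subunit, which binds actin, lay between 628.9 and 684.8 CPM in C57BL/6J sham mice at 9 h and between 633.8 and 802.8 CPM in CHI mice, of which 12 of 15 were above every sham mouse. The log2 fold change was 0.11 (SE 0.04, adjusted p = 0.0923) and over the 4 strains 0.08 (SE 0.03, adjusted p = 0.0550). The CHI mean of Camk2b was above the sham mean in 7 of 8 sets of 1 strain and 1 experiment (-0.05 to 0.15). Ykt6 overlaps Camk2b, with group means of 82.5 to 102.2 CPM at 9 h. Camk2d, the delta subunit, gave -0.29 (SE 0.13, adjusted p = 0.157) in C57BL/6J mice and 0.03 to 0.14 in the other strains. Without sham replicate 4 of C57BL/6J, Camk2d was called (-0.40, adjusted p = 0.0448; 0.0448 to 0.435 over 15 alternatives).

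At 24 and 72 h, 1 of the 80 values of the 10 genes in single strains was called, that of Camkk2. The 80 log2 fold changes lay between -0.43 and 0.20, their median size was 0.08, and the lowest adjusted p among those not called was 0.318. The share of all genes called was 0.0059% in gKO, 0% in eRestore and 0% in nRestore mice at 24 h, and at 72 h 0% in C57BL/6J, 0% in gKO, 0.00605% in eRestore and 0.0121% in nRestore mice. In the 4 comparisons in which edgeR called 0 genes, 376 to 1494 genes had an unadjusted p under 0.05 and DESeq2 with its own size factors called 38 (C57BL/6J, 72 h), 0 (gKO, 72 h), 50 (eRestore, 24 h) and 3 (nRestore, 24 h). Between 0 and 4 of the 10 kinase genes had an unadjusted p under 0.05 in each of these later comparisons, and DESeq2 called Camk1g in eRestore and Camkk2 in C57BL/6J mice at 24 h and no other of the 10. Over the 4 strains edgeR called 0 of the 10 at 24 h (6 with an unadjusted p under 0.05; 1.48% of all genes called) and 0 at 72 h (0 with an unadjusted p under 0.05; 0.706%), and DESeq2 was not run on these.

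To ask whether the response at 9 h depended on time, the CHI effect at 9 h was compared with that at 24 and 72 h in each strain. For Camkk1 the effect at 9 h was larger than that at 24 h by 0.86 (SE 0.11, adjusted p = 4.07e-07) in C57BL/6J, 0.71 (SE 0.14, adjusted p = 0.0114) in gKO, 0.78 (SE 0.13, adjusted p = 0.000866) in eRestore and 0.72 (SE 0.13, adjusted p = 0.0149) in nRestore mice, where the call was lost with experiment in place of age (0.64, adjusted p = 0.0590; 0.00351 to 0.0590 over 3 alternatives). It was larger than that at 72 h by 1.04, 0.66, 0.70 and 0.79, in the same order of strains (adjusted p from 1.61e-09 to 0.0168). In C57BL/6J mice the effects at 9 and 72 h also differed for Camk1d, by 0.41 (SE 0.11, adjusted p = 0.0107), and for Camk1, by -0.37 (SE 0.10, adjusted p = 0.0142). In C57BL/6J mice 1 of the 10 genes was called for 9 against 24 h and 3 for 9 against 72 h, where 5.05% and 6.92% of all genes were. In each other strain 1 was called for both, where the shares of all genes were 0.349% and 0.0776% in gKO, 0.195% and 0.551% in eRestore, and 0.114% and 0.18% in nRestore mice.

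The differences between times were then split by arm, over the 4 strains. In CHI mice Camkk1 was higher at 9 h than at 24 h by 0.99 (SE 0.04) and than at 72 h by 1.01 (SE 0.04), and in sham mice by 0.22 (SE 0.05) at both. Camk1d was higher at 9 h than at 24 and 72 h by 0.44 and 0.42 in CHI mice and by 0.25 and 0.15 in sham mice. Camk1 was lower at 9 h, with differences of -0.39 and -0.31 in CHI mice and -0.33 and -0.20 in sham mice. The sham mice thus also differed between times for these genes, in the same direction. Tissue markers moved between times in the same sham mice. In C57BL/6J sham mice the summed level of 5 striatal markers had a median of 194.3 CPM at 9 h (118.4 to 613.0) against 863.8 CPM at 24 h (648.5 to 1056) and 812.1 CPM at 72 h (618.5 to 1160). That of 4 markers of excitatory forebrain neurons had medians of 1723, 1107 and 1059 CPM, and that of 4 hypothalamic markers 0.284, 2.61 and 2.49 CPM. Their part in the differences between times was not tested. Camk2a, Camk2b and Camk2g were higher at 9 h in sham mice by 0.19 to 0.25 and in CHI mice by 0.20 to 0.39, and Camk2d was called in neither arm. Of the 10 genes 7 were called in sham mice for 9 against 24 h and 8 for 9 against 72 h, where 45.9% and 44.8% of all genes were, and 9 and 8 in CHI mice, where 69.5% and 69.4% were. With age as a further covariate, 5 rather than 8 were called in sham mice for 9 against 72 h, and 5732 rather than 8504 of all genes; Camk1 (adjusted p = 0.0581), Camk2a (0.0878) and Camk4 (0.0891) lost the call.

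**Figure D4:**
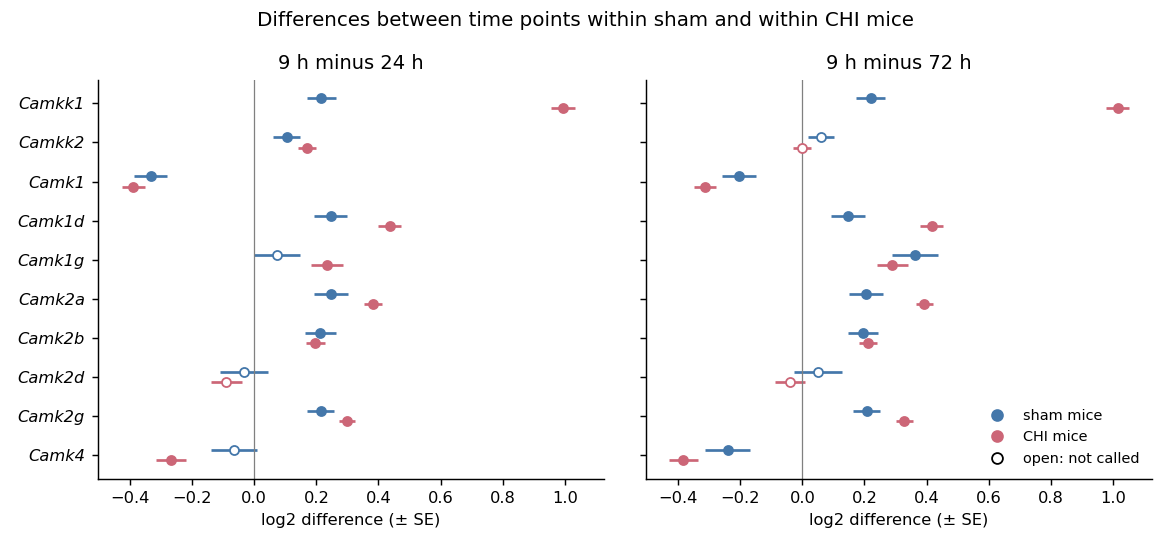
Log2 difference between 9 h and a later time (24 h in the left panel, 72 h in the right panel) within sham mice and within CHI mice of the 4 strains, with the standard error as bars and filled symbols for called genes. Camkk1 lies at 0.22 in sham mice in both panels, and at 0.99 and 1.01 in CHI mice.

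At each time, the CHI effect in gKO, eRestore and nRestore mice was set against that in C57BL/6J mice by an interaction term. In these 9 comparisons edgeR called 0 of the 10 genes, 0 to 3 had an unadjusted p under 0.05, and DESeq2 was not run on them. For Camkk1 at 9 h the difference was -0.30 (SE 0.15, adjusted p = 0.949) in gKO, -0.26 (SE 0.13, adjusted p = 0.383) in eRestore and -0.29 (SE 0.17, adjusted p = 0.677) in nRestore mice. For Camk1 at 9 h gKO minus C57BL/6J was 0.41 (SE 0.12, unadjusted p = 0.00202, adjusted p = 0.596). The strains were thus not shown to differ for Camk1, although it was called in 1 strain and had the opposite sign in gKO. Within the gKO experiments the differences were 0.22 (6 CHI, 2 sham), -0.12 (4 CHI, 2 sham) and -0.00 (3 CHI, 2 sham). The only nRestore experiment gave -0.00. On the log2 scale the CHI mean of Camk1 at 9 h was below the sham mean in 7 of 8 sets of 1 strain and 1 experiment (-0.37 to 0.22). The sets at -0.00 were level, with mean CPM of 40.78 (CHI) and 40.76 (sham) in gKO and 40.7 and 40.58 in nRestore. The shares of all genes called at 9 h were 0.00567% (gKO), 0.817% (eRestore) and 0.00555% (nRestore), and at 24 and 72 h they were 0% except for gKO at 24 h (0.0114%).

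The CHI effect was also compared between males and females over the 4 strains. edgeR called 0 of the 10 genes at each time, with 0, 1 and 1 at an unadjusted p under 0.05 at 9, 24 and 72 h, and DESeq2 was not run on this. The effect on Camkk1 at 9 h was -0.01 (SE 0.11) in males minus females. Of all genes 0%, 0% and 0.00543% were called.

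Levels of different genes were compared in sham mice as TPM, which is corrected for length. Camk2a was the highest, at 1434 ± 178.3 TPM (SD, n = 67), above the other 9 genes in every sham mouse, and made up 68.3% of the summed CaM kinase II TPM. Camk2b followed at 332.7 ± 54.0 TPM and Camk2g at 258.9 ± 40.6 TPM, with overlapping ranges. Camkk2 lay at 127.4 ± 16.7 TPM and so above Camkk1, at 57.1 ± 8.45 TPM, with no overlap (86.3 to 162.4 against 33.7 to 82.1 TPM). Camk2d (72.8 ± 16.3), Camk1 (68.6 ± 10.3), Camk4 (65.4 ± 15.5), Camkk1 and Camk1d (56.9 ± 9.50 TPM) had overlapping ranges, and Camk1g was the lowest at 21.7 ± 4.62 TPM. Differences between genes, which were measured in the same mice, were not tested.

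**Figure D5:**
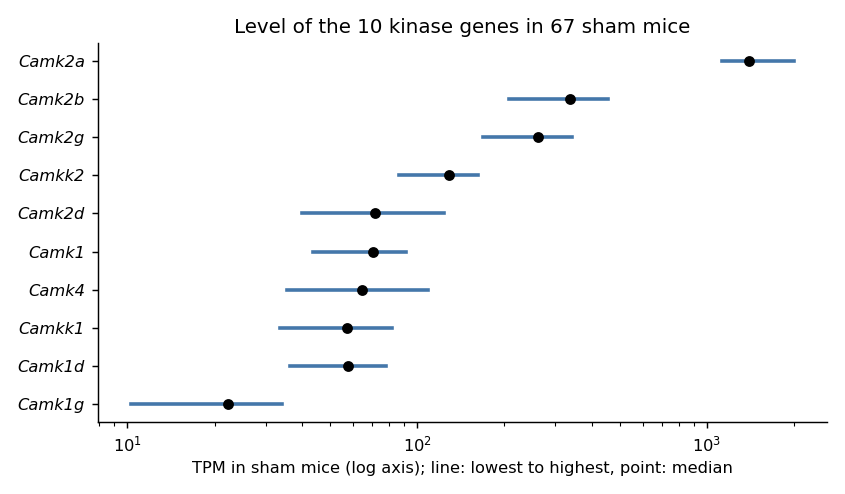
Level of the 10 genes in 67 sham mice as TPM on a log axis, with a line from the lowest to the highest mouse and a point at the median. Camk2a spans 1129 to 2000 TPM and Camk1g 10.3 to 34.3 TPM.

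Between strains, sham mice differed for 4 of the 10 genes. In eRestore Camk2b was higher than in C57BL/6J by 0.20 (SE 0.05, adjusted p = 0.0216) and Camk4 by 0.29 (SE 0.08, adjusted p = 0.0247). In nRestore Camkk1 was lower (-0.15, SE 0.06, adjusted p = 0.0483, and 0.0669 with age as a further covariate) and Camk1g was lower too (-0.35, SE 0.09, adjusted p = 0.00476). In gKO edgeR called 0 of the 10, with 5 at an unadjusted p under 0.05, and DESeq2 was not run on this comparison. The shares of all genes called were 4.29% in eRestore, 14.5% in nRestore and 4.42% in gKO. Strains and experiments were not balanced, and the part of the experiments in these differences was not tested.

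For the 3 genes with the smallest p at 9 h in C57BL/6J mice, the genes with the most similar level over all 200 mice were listed, by Pearson's r of log2 CPM among 13382 genes. For Camkk1 they were Fkbp5 (r = 0.92), a target of the glucocorticoid receptor, Eef2k (r = 0.92), a calmodulin-dependent kinase that slows translation elongation, and Ccsap (r = 0.90). Within the 24 groups, where the differences between times and between CHI and sham are taken out, these r were 0.58, 0.66 and 0.57. For Camk1d they were Add2 (0.92), Ctif (0.92) and Creg2 (0.92), with 0.84, 0.81 and 0.81 within groups. For Camk1 they were Tpd52l2 (0.81), Zranb2 (0.81) and Srsf7 (0.81), with 0.67, 0.59 and 0.65 within groups. All pairs come from the same libraries and share their depth.

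The rest of the pathway was described by 56 genes in 7 lists. At 9 h in C57BL/6J mice 4 of them were higher and 2 lower, a share no larger than the 14.1% called among all genes, and their median log2 fold change was 0.02. The list for the AMP-activated kinase, the target of CaM kinase kinase 2, held subunits of that kinase and Stk11, which is not a subunit. Of its 7 genes 1 was called: Prkab2, a beta subunit, was higher by 0.84 (SE 0.10, adjusted p = 3.18e-06). Among 11 other kinases of the CaM kinase group Eef2k was higher by 0.46 (SE 0.06, adjusted p = 1.60e-05) and Dapk1, a kinase of cell death, by 0.57 (SE 0.09, adjusted p = 7.63e-05). Among 9 postsynaptic partners of CaM kinase II, Grin1, the obligatory NMDA receptor subunit, was higher by 0.23 (SE 0.05, adjusted p = 0.00186) and Lrrc7, the scaffold densin, was lower (-0.44, SE 0.12, adjusted p = 0.0182). Of 8 genes of CREB and its coactivators Crem was lower (-0.31, SE 0.08, adjusted p = 0.00838).

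None of the 7 genes of calmodulin and its binding buffers was called in C57BL/6J mice at 9 h; Gap43, a calmodulin-binding protein of growing axons, had a log2 fold change of -0.28. No gene was called among the 6 regulators and close relatives of CaM kinases (-0.14 to 0.12) or among the 8 genes of calcineurin, the calcium-dependent phosphatase (-0.11 to 0.15; Rcan1, its inhibitor, 0.15). In eRestore mice 8 of the 56 were higher and 2 lower at 9 h, where 7.34% of all genes were called. They included Prkab2 (0.50, adjusted p = 0.0101), Grin1 (0.30, adjusted p = 0.00431), Ppm1e (0.26, adjusted p = 0.00213), a phosphatase of CaM kinases, and, named after their values were seen, Mylk3 (0.80, adjusted p = 0.0239) and the calmodulin buffer Pcp4 (-0.37, adjusted p = 0.0334). In gKO and nRestore mice edgeR called 0 of the 56, where 0.199% and 0.608% of all genes were called, with 4 and 11 at an unadjusted p under 0.05, and DESeq2 called 1 and 2. Prkab2 had 0.52 (SE 0.13, adjusted p = 0.110) and 0.65 (SE 0.18, adjusted p = 0.171) there, and Eef2k 0.28 (SE 0.08, adjusted p = 0.156) and 0.33 (SE 0.10, adjusted p = 0.160). At 24 and 72 h edgeR called 0 of the 56 in each strain, with 0 to 9 at an unadjusted p under 0.05, and DESeq2 called 2 in gKO mice at 24 h and 0 in the other 7 of these comparisons. Over the 4 strains together 10 of the 56 were higher and 5 lower at 9 h (23.9% of all genes called), with a median of 0.03, 1 was lower at 24 h (1.48%) and 0 were called at 72 h (0.706%), with 4 at an unadjusted p under 0.05 there; DESeq2 was not run on this fit. The gene lower at 24 h, named after its value was seen, was Phkg1, a phosphorylase kinase subunit (-0.21, SE 0.06, adjusted p = 0.0475).

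Markers of other cell types were read in the same mice at 9 h. In C57BL/6J mice 2 of 4 microglial markers were lower (P2ry12, -1.05; Tmem119, -0.40), and their summed level ran from 160.7 to 276.0 CPM in sham and from 114.1 to 197.1 CPM in CHI mice. Of 4 astrocyte markers 2 were higher (Gfap, 1.12; Aldh1l1, 0.38), with sums of 834.6 to 1216 CPM in sham and 973.0 to 1403 CPM in CHI mice. Of 4 neuronal markers 1 was lower (Tubb3, -0.31), with sums of 6166 to 7344 CPM and 5707 to 7851 CPM, and of 4 markers of excitatory forebrain neurons 1 was lower (Neurod6, -0.29), with sums of 1474 to 2188 CPM and 1485 to 2118 CPM. Pecam1 (0.39), Pdgfra (0.30), Flt1 (-0.28) and Calb1 (-0.50) were also called. In eRestore mice, where Camkk1 and Camk1d were called, the excitatory markers went the other way: 1 of 4 was higher (Slc17a7, 0.34, adjusted p = 0.0435), their median log2 fold change was 0.27 (0.18 to 0.34), beside 0.35 for Camk1d, and their sums ran from 1321 to 2149 CPM in sham and from 1520 to 2504 CPM in CHI mice. Of the neuronal markers Syt1 was higher there (0.29, adjusted p = 0.0404), and Gfap (0.39), P2ry12 (-0.41) and Calb1 (-0.35) were also called. In nRestore mice Aldh1l1 was called (0.41), and in gKO mice no marker of these lists was. Choroid plexus markers varied widely, from 12.2 to 3232 CPM in sham and from 3.67 to 1605 CPM in CHI mice, with medians of their log2 fold changes of -2.14 in C57BL/6J, -1.34 in gKO, -3.44 in eRestore and 1.01 in nRestore mice. Striatal markers had medians of -0.77, -0.56, -0.67 and -0.47 in that order, with sums of 118.4 to 613.0 CPM in sham and 162.9 to 381.8 CPM in CHI mice of C57BL/6J. None of the choroid plexus or striatal markers was called in a single strain. In the fit of the 4 strains, which gave the calls of Camk4, Camk2a and Camk2g, 4 of 4 choroid plexus markers (median -2.15) and 3 of 5 striatal markers (median -0.57) were lower, and 3 of 4 microglial markers were lower. The part of these cell types and regions in the kinase results was not tested.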

How the data were processed

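RNA from 1 hemisphere of 200 mice was sequenced by the authors as poly(A) libraries with paired ends, aligned to GRCm39 with STAR and quantified with Salmon. The authors deposited estimated counts (expected counts) per gene, not normalised, and TPM values, scaled within each mouse for length and depth. The submitters' processing notes also name FastQC and DESeq2. The annotation release and the strandedness are not given in the sources used here, so reads of overlapping genes on opposite strands may not have been told apart.

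Groups were taken from the sample labels, and replicates were numbered in accession order. After rounding, edgeR 4.0.16 in R 4.3.3 was used for the test (TMM factors, robust quasi-likelihood F test). Genes were kept when the number of mice with 10 or more counts reached the size of the smaller arm. A separate model was made for every strain and time, which also held age and, except where all mice were male, sex. Differences of the CHI effect between strains, times and sexes were interaction terms. Arms were compared between times with strain and sex, and sham mice between strains with time and sex. p-values were adjusted over all genes tested, and SE is the log2 fold change divided by the root of F. Each label gives a separate animal. The tests were tested on simulated data. Python 3.11.15 with pandas 2.3.3 made the tables.

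Described are the 10 kinase genes, in the 7 pathway lists the genes called in C57BL/6J mice at 9 h and up to 4 per list by smallest p, and 3 similar genes for each of 3 members. The members and lists were chosen with earlier results of these data known. Alternatives were DESeq2 1.42.0 with its own size factors or gene-length offsets, other filters, covariates and scaling, 1 fit per strain, the largest experiment alone and leaving out each sham mouse. Total counts per mouse ran from 14857985 to 57355676, counts carry no molecular identifiers, and precision is given by the SE, which includes the spread between mice.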

Additional observations from a re-analysis of the deposited data

Results flagged for a closer look

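The CHI effect on Camkk1 at 9 h differed from that at 24 h by 0.86 in C57BL/6J, 0.71 in gKO, 0.78 in eRestore and 0.72 in nRestore mice (0.64 and not called with experiment in place of age), and from that at 72 h by 1.04, 0.66, 0.70 and 0.79. In C57BL/6J mice it differed between 9 and 72 h also for Camk1 (-0.37) and Camk1d (0.41). These are the 10 called among 200 tests of a difference of the CHI effect between times, strains or sexes on the 10 genes.

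In 11 of 160 sets of 1 gene and 1 group, the highest or lowest mouse stood apart from its group by more than Dixon's 95% limit, which chance passes in about 1 of 20. At 9 h these were Camkk1 in nRestore CHI replicate 2 (248.5 CPM, next 191.9), Camk1d in eRestore sham replicate 4 (261.4 CPM, next 211.1), Camk1g in C57BL/6J sham replicate 3 (40.0 CPM, next 31.7), Camk2a in nRestore CHI replicate 5 (5032 CPM, next 4279) and Camk4 in nRestore sham replicate 4 (93.75 CPM, next 85.17). At 24 h it was Camk1 in nRestore sham replicate 1 (67.66 CPM, next 55.47). At 72 h they were Camk1g in eRestore sham replicate 3 (14.83 CPM, next 21.4), Camk2a in gKO sham replicate 3 (5349 CPM, next 3590) and in eRestore sham replicate 3 (4227 CPM, next 3361), Camk2g in nRestore CHI replicate 4 (225.2 CPM, next 248.6) and Camk4 in nRestore CHI replicate 6 (65.67 CPM, next 86.42). The same eRestore sham mouse at 72 h was lowest for Camk1g and highest for Camk2a.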

How the results depend on the processing

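Over all comparisons, none of 60 called log2 fold changes of the 10 genes changed sign under an alternative, while 75 of 360 uncalled ones did (the largest of them was 0.16 in size) and 9 were called under at least 1. The called values include contrasts of times within an arm and of sham mice between strains. The alternatives share their mice with the main fit, so a called value could hardly change sign and the count is no separate support. Camkk1 at 9 h was called under 15 of 15 alternatives in C57BL/6J and eRestore, 14 of 15 in gKO and 10 of 12 in nRestore mice. Camk1 and Camk1d in C57BL/6J and Camk1d in eRestore mice were called under 15 of 15.

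The number of kinase genes called in C57BL/6J mice at 24 h went from 1 to 0 with the largest experiment alone and in 1 fit of the strain, and lay between 0 and 1 without single sham mice. In gKO at 9 h it went from 1 to 0 with the largest experiment alone. In eRestore at 24 h it went from 0 to 1 without a filter and with both DESeq2 fits. In nRestore at 9 h it went from 1 to 3 without a filter and to 2 without covariates, without age (all these mice were of 1 experiment, so that no experiment term took its place) and with both DESeq2 fits, and lay between 0 and 1 without single sham mice. Experiment in place of age took the count for the effect at 9 minus 24 h in nRestore mice from 1 to 0 (Camkk1, 0.64, adjusted p = 0.0590). Over the 4 strains at 24 h the count went from 0 to 1 (Camkk2) without covariates and with experiment in place of age. Age as a further covariate took the count for sham mice at 9 minus 72 h from 8 to 5 and for nRestore against C57BL/6J sham mice from 2 to 1. The causes were not tested.

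Over all genes, the number called moved with the setting, from 1226 to 3157 (2385 as reported) in C57BL/6J mice at 9 h, 0 to 392 (33) in gKO, 137 to 1984 (1222) in eRestore and 12 to 806 (102) in nRestore mice. At 24 h it ran from 17 to 333 (67) in C57BL/6J, 0 to 120 (1) in gKO, 0 to 93 (0) in eRestore and 0 to 6 (0) in nRestore mice, and at 72 h from 0 to 38 (0), 0 to 3 (0), 0 to 16 (1) and 0 to 11 (2). In the fits without a filter in nRestore at 9 h and eRestore at 24 h, the estimated spread was nearly the same for all genes of like level.

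No paired analysis was possible because the labels give no replicate numbers and each mouse is in 1 group.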

Other observations

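Over all 200 mice the levels of Camkk1 and Camk1d were correlated (Pearson's r of log2 CPM 0.80, and 0.54 within the 24 groups), as were Camkk1 and Camk2g (0.75 and 0.48). Camk1 ran against Camk1d (-0.83, and -0.66 within groups) and against Camk2b (-0.75 and -0.62). Camk4 and Camk1d had 0.01 over all mice and 0.60 within groups. These are descriptions over mice that share groups, experiments and library preparation, with no test.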
